A study of Homo sapiens with 6 samples.

Results

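Metallothioneins are small cysteine-rich proteins that bind zinc, copper and cadmium, and the genes examined here are the metallothioneins, their regulator MTF1 and the zinc exporter SLC30A1. The list names 8 genes, MT1E, MT1F, MT1G, MT1M, MT1X, MT2A, MTF1 and SLC30A1, and 7 of them had a row among the 22941 genes of the count table. MT1G was not analysed here. The 7 genes passed the filter on low counts and were among the 14736 genes tested. MT1M passed it only through its counts in normal gravity.

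The RNA came from HSC-3 cells, an established human line of oral squamous cell carcinoma, grown in DMEM with 10% fetal bovine serum. Simulated microgravity was produced in a Rotary Cell Culture System (RCCS), which keeps cells turning in a vessel, and the other group was kept under normal gravity. No genetic change or drug is named for either group, and neither the vessel used for normal gravity nor how long cultures ran is stated in the labels. Each group had 3 libraries that the titles call biological replicates, and whether the cultures were kept apart is not stated. The p-values therefore measure only the spread between these libraries, and that spread may be partly technical. The comparison asks how the transcripts of these cells differ between RCCS culture and normal gravity. In this design gravity cannot be told apart from the turning or from any difference in vessel.

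Free zinc in a cell is held low by binding to metallothioneins, by export through ZnT transporters (the SLC30 family) and by limiting import through ZIP transporters (the SLC39 family). MTF1 is the transcription factor that senses zinc. It binds metal response elements in the promoters of metallothionein genes and of SLC30A1 and switches them on when zinc or cadmium rises. Metallothionein genes, MT2A above all, also respond to glucocorticoids and to oxidative stress, and in squamous epithelium metallothionein is found mainly in the dividing basal layer.

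Before the gene start, MT2A and MT1X carry many copies of the element that MTF1 reads. The 250 bases before the RefSeq gene start are shown for the 4 members that matched a RefSeq promoter, because MT2A, MT1X and SLC30A1 are known targets of MTF1, the fourth gene shown. Capitals mark the core of the metal response element, TGCACNC or TGCGCNC, on either strand.
MT2A (GRCh38.p14, chr16:56608334-56608583, plus strand): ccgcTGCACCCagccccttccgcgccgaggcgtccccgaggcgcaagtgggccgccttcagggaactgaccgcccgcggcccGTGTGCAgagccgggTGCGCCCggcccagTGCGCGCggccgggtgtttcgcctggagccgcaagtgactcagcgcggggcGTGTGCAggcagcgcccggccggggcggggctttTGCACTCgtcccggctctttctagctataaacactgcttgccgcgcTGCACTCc
MT1X (GRCh38.p14, chr16:56682220-56682469, plus strand): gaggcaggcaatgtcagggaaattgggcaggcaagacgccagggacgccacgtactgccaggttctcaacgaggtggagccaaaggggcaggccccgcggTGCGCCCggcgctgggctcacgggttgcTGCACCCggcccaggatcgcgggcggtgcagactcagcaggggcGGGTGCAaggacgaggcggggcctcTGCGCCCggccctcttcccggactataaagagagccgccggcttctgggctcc
SLC30A1 (GRCh38.p14, chr1:211579162-211579411, minus strand): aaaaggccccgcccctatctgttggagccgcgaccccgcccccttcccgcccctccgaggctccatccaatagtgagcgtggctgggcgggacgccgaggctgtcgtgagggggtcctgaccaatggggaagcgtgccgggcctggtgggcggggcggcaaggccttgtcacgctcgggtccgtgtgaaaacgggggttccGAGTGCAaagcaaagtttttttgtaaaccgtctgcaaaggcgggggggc
MTF1 (GRCh38.p14, chr1:37859593-37859842, minus strand): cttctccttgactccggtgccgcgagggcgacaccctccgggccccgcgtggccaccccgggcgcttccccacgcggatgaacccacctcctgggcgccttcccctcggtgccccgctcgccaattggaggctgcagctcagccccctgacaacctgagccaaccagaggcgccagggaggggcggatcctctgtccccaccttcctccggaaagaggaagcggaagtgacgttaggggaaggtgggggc
The core occurred 7 times in MT2A, 4 times in MT1X, 1 time in SLC30A1 and 0 times in MTF1. Among 35116 promoters cut the same way, 24.8% held at least 1 core, 0.370% at least 4 and 0.0313% at least 7. A match of letters does not show that MTF1 binds there, and no match says only that these letters are not in this window.

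**Figure D1:**
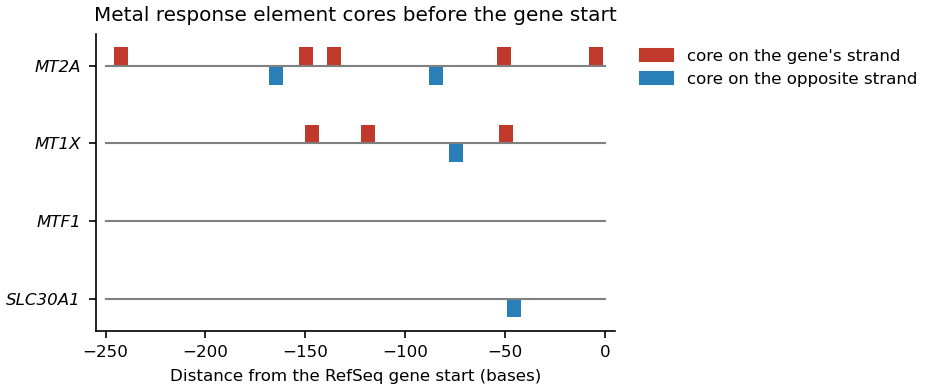
Positions of the metal response element core in the 250 bases before the RefSeq gene start, with the distance from the start in bases on the horizontal axis and 1 line per gene. Red boxes above a line lie on the gene's strand and blue boxes below it on the opposite strand, with 7 boxes on MT2A, 4 on MT1X, 1 on SLC30A1 and 0 on MTF1.

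The 5 metallothionein genes measured lie within 1 cluster on chromosome 16, from 56608584 to 56684196 in RefSeq GRCh38.p14. MT2A (Entrez Gene 4502, 56608584 to 56609497) comes first and MT1X (Entrez Gene 4501, 56682470 to 56684196) last, with MT1E (4493), MT1M (4499) and MT1F (4494) between them. Each main transcript in GENCODE release 29 has 3 exons and 183 coding bases without the stop codon. The coding sequences are shown because the copies are so alike that reads could be shared among them, with the codons for cysteine in capitals, the residues that hold the metal.
MT2A: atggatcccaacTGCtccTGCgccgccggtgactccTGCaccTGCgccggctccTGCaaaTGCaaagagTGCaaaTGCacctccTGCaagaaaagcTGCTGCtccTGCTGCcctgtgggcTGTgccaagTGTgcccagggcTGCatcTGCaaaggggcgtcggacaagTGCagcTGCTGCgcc
MT1X: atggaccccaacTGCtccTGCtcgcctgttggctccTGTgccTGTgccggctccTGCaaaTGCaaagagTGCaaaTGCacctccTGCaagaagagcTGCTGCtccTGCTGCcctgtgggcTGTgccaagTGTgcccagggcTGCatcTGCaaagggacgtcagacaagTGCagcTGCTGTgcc
MT1E: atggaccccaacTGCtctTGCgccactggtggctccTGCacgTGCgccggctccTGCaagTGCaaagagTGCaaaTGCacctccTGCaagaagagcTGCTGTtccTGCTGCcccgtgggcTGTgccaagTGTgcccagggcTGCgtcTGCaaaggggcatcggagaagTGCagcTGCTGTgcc
MT1F: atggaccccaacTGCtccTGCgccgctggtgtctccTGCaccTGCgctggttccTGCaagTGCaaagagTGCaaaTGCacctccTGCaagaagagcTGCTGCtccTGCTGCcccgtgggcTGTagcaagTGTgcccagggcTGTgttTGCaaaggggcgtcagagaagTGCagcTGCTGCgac
MT1M: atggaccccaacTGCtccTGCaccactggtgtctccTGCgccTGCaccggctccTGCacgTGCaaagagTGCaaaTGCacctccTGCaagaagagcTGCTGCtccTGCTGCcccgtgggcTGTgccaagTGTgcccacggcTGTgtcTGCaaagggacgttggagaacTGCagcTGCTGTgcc
Each has 20 cysteine codons among 61. Between pairs of these genes 88.5% to 92.3% of coding bases were identical. Read length was 150 bases, and no window of 150 bases in the MT2A, MT1E, MT1F and MT1M transcripts occurred in a transcript of another gene, with 541 to 680 windows each. For MT1X, 17 of 301 such windows (5.65%) also occurred in a transcript of an overlapping non-coding gene on the same strand. At 50 bases, shared windows made up 45.1% of MT1X and 3.59% to 7.05% of the other 4. By this measure of shared sequence alone, the counts of MT1X are the least certain of the 5. The treatment of reads that match several genes is not stated.

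Total counts per library were 34264008 to 36317678 in simulated microgravity and 37276166 to 38861233 in normal gravity. All 10 listed epithelial markers were detected, not all of them particular to squamous epithelium. KRT8, KRT17, KRT18, CDH1 and EPCAM rose, and KRT5, KRT14 and TP63 fell. Over all genes tested 28.2% rose and 29.3% fell. CPM is a gene's counts relative to the library's total, scaled by TMM factors. The markers summed to 6602 to 7914 CPM in simulated microgravity and 13149 to 22195 CPM in normal gravity. In normal gravity most of each sum came from KRT5 and KRT14, so the sums do not stand for the 5 markers that rose. KRT5 had a mean of 1011 CPM in simulated microgravity and 9712 CPM in normal gravity, and KRT14 of 292 and 3106 CPM. Of 6 fibroblast markers, none of the 4 tested was called by edgeR's quasi-likelihood test, DESeq2 or limma-voom, nor at an unadjusted p under 0.05, and their sums were 18.1 to 18.9 CPM in simulated microgravity and 12.7 to 30.7 CPM in normal gravity. Without normal gravity replicate 3, COL1A1 rose. The 3 endothelial markers summed to 2.18 to 3.49 CPM in simulated microgravity and 1.597 to 5.76 CPM in normal gravity. Of these CDH5 was called higher, with 21, 14 and 45 counts in simulated microgravity and 0, 1 and 5 counts in normal gravity. CDH5 passed the filter on low counts only through simulated microgravity, where it is high, so its call is given as a description. Of 5 leukocyte markers, CD68 and CD14 were higher in simulated microgravity, whereas PTPRC, the pan-leukocyte marker, was at 0.115 CPM or less in each simulated microgravity library and at 0.186 CPM or less in each normal gravity library. Normal gravity replicate 3 stood apart on the second principal component (7.59% of the variance). It lay at -55.9 there, against 17.6 and 36.3 for replicates 1 and 2. Several results that rest on this library are also given without it.

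Metallothionein transcripts fell in simulated microgravity in each of the 5 genes, while MTF1 rose. Of the 7 genes, 5 fell and 1 rose (edgeR's quasi-likelihood test, adjusted p under 0.05), and DESeq2 and limma-voom gave the same counts. Over all genes tested 57.6% were called, 29.3% lower and 28.2% higher. DESeq2 called 59.6% (29.7% lower, 29.9% higher) and limma-voom 57.8% (28.9% in either direction). The median log2 fold change (simulated microgravity minus normal gravity) was -2.23 for the 7 genes and -0.01 for all tested genes. A call with a log2 fold change under -2 was made for 4 of the 7 genes, against 6.08% of genes tested. MT1M is counted among the 5 and the 4, and the median of the 7 genes includes it. Its call is given as a description, since it passed the filter only through normal gravity. In bulk RNA, fewer cells that express a gene and less RNA per cell cannot be told apart, and each change is relative to the rest of a library's transcripts.

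MT2A, the most abundant metallothionein, was at 102, 105 and 86.1 CPM in the simulated microgravity libraries, against 499.6, 537 and 339.6 CPM in the normal gravity libraries. The groups do not overlap, and the lowest normal gravity value is that of replicate 3. The log2 fold change was -2.23 (SE 0.19, adjusted p = 3.49e-05), a mean 4.70-fold lower than in normal gravity. Without normal gravity replicate 3 it was -2.41.

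MT1X, a ubiquitously expressed isoform, was at 19.3, 22.9 and 14.8 CPM in simulated microgravity, against 117, 76.3 and 169 CPM in normal gravity. Here normal gravity replicate 3 is the highest library rather than the lowest, and the groups again do not overlap. The log2 fold change was -2.67 (SE 0.30, adjusted p = 0.000225), and -2.34 without that library.

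MT1E was the most even of the 5 within normal gravity. It was at 12.1, 9.41 and 7.72 CPM in simulated microgravity, against 60.2, 67.2 and 65.2 CPM in normal gravity (log2 fold change -2.72, SE 0.17, adjusted p = 1.00e-05). Its mean was 6.59-fold lower than in normal gravity, with no overlap between groups.

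The scarcer isoforms fell as well. MT1F was at 1.90, 1.59 and 1.84 CPM in simulated microgravity, against 4.66, 4.90 and 6.40 CPM in normal gravity (log2 fold change -1.58, SE 0.25, adjusted p = 0.000937). MT1M had 6, 0 and 2 counts in simulated microgravity, against 32, 29 and 54 counts in normal gravity. Both genes separate the groups without overlap. For MT1M the log2 fold change was -3.69 (SE 0.81, adjusted p = 0.00444), and it rests on few counts, since without simulated microgravity replicate 1 it was -5.03. MT1M passed the filter on low counts only through normal gravity, where it is high. Its test and lack of overlap are therefore given as a description. MT1H had 0 counts in simulated microgravity and 3 in normal gravity, and MT3, the neuronal metallothionein, had 3 counts in simulated microgravity and 4 in normal gravity, too few for a fold. Of 14 further metallothionein genes and pseudogenes looked for, these were the 2 with a row, and neither passed the filter.

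MTF1 (Entrez Gene 4520, chromosome 1, 37809574 to 37859592) went the other way. It was at 42.0, 42.6 and 39.4 CPM in simulated microgravity, against 25.4, 31.9 and 30.1 CPM in normal gravity. Each simulated microgravity library lies above each normal gravity library, and the log2 fold change was 0.50 (SE 0.12, adjusted p = 0.00706), a mean 1.42-fold higher in simulated microgravity. A processed pseudogene overlaps it on the opposite strand, and the strand setting of the counting is not known here.

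SLC30A1 (Entrez Gene 7779, chromosome 1, 211571568 to 211579161), the zinc exporter of the plasma membrane, was not called. It was at 42.1, 36.5 and 34.9 CPM in simulated microgravity, against 25.8, 27.8 and 38.5 CPM in normal gravity. The groups overlap through normal gravity replicate 3 alone. The log2 fold change was 0.30 (SE 0.17, adjusted p = 0.158), and without that library it was 0.50 (adjusted p = 0.00436, edgeR's quasi-likelihood test). Without that library 62.8% of the genes tested were called, 31.8% higher and 31.0% lower. Groups that did not overlap were found for 6 of the 7 genes, 5 lower and 1 higher in simulated microgravity. Over all tested genes, 33.3% were lower and 33.0% higher without overlap. MT1M, counted among the 5, is given as a description.

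**Figure D2:**
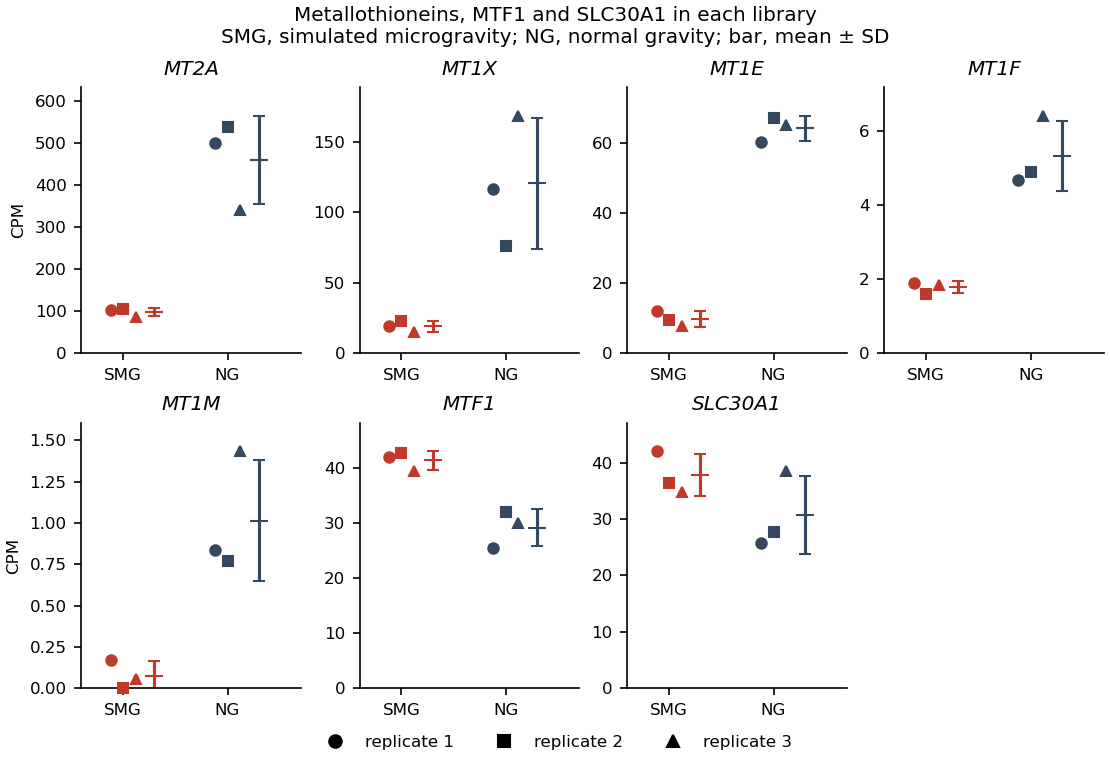
CPM of the 7 genes, 1 panel each with its own axis from 0, for 3 simulated microgravity (SMG) and 3 normal gravity (NG) libraries; marker shape gives the replicate and the bar to the right of each group the mean ± SD (lower end cut at 0). Simulated microgravity libraries lie below normal gravity libraries for the 5 metallothioneins, above them for MTF1, and overlap them for SLC30A1.

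Per kilobase of the main GENCODE transcript, MT2A had the highest level of the 7 genes in both groups, at 124 ± 12.8 CPM per kilobase in simulated microgravity and 584 ± 134 in normal gravity (SD, n = 3 each, as for the levels that follow). MT1X came next with 42.2 ± 9.02 in simulated microgravity and 268 ± 103 in normal gravity, then MT1E with 13.8 ± 3.13 in simulated microgravity and 91.2 ± 5.10 in normal gravity. In both groups these levels are further apart than their SDs. Further down, the order differed between the groups. SLC30A1 had 6.91 ± 0.69 CPM per kilobase in simulated microgravity and 5.61 ± 1.25 in normal gravity, and MTF1 had 5.18 ± 0.21 in simulated microgravity and 3.65 ± 0.42 in normal gravity. MT1F, at 2.57 ± 0.24 in simulated microgravity and 7.71 ± 1.37 in normal gravity, was below both of them in simulated microgravity and above both in normal gravity, where its level and that of SLC30A1 lie within their SDs. MT1M was lowest, with 0.0914 ± 0.106 in simulated microgravity and 1.22 ± 0.44 in normal gravity. These levels depend on the transcript length assumed, 450 bases for MT1X and 786 for MT2A.

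Summed over the 5 genes, metallothionein transcripts were at 136, 139 and 110.5 CPM in simulated microgravity, against 682, 687 and 581 CPM in normal gravity. That is a mean of 128 ± 15.4 CPM in simulated microgravity and 650.1 ± 59.5 CPM in normal gravity (SD, n = 3 each), 5.07-fold lower in simulated microgravity. The sum does not depend on how reads were split among these 5 copies. Normal gravity replicate 3, in which MT2A was lowest and MT1X highest, was closer to its group in the sum than in either gene.

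MT2A made up 75.3%, 75.5% and 77.9% of the 5 genes' counts in simulated microgravity, against 73.2%, 78.3% and 58.4% in normal gravity. The low share is that of normal gravity replicate 3, where MT1X took 29.04% of the counts, against 17.1% and 11.1% in normal gravity replicates 1 and 2. In simulated microgravity MT1X took 14.2%, 16.6% and 13.4%. A ratio of counts within a library is free of scaling, and 4 such ratios were tested with a two-sided exact permutation test, which with 3 libraries against 3 cannot go below p = 0.1.

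MT1E relative to MT2A was at 0.118, 0.0899 and 0.0897 in simulated microgravity, against 0.121, 0.125 and 0.192 in normal gravity, without overlap (exact permutation p = 0.1, adjusted p = 0.4). MT1X relative to MT2A was at 0.189, 0.219 and 0.172 in simulated microgravity, against 0.234, 0.142 and 0.497 in normal gravity (exact permutation p = 0.6, adjusted p = 0.6), and its mean log2 difference of -0.40 was 0.078 without normal gravity replicate 3. MT1F relative to MT2A was at 0.0185, 0.0152 and 0.0214 in simulated microgravity, against 0.00932, 0.00911 and 0.0189 in normal gravity (exact permutation p = 0.3, adjusted p = 0.533). SLC30A1 relative to MTF1 was at 1.00, 0.856 and 0.886 in simulated microgravity and 1.01, 0.871 and 1.28 in normal gravity (exact permutation p = 0.4, adjusted p = 0.533). None of the 4 ratios could be told apart between groups in a design of this size.

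**Figure D3:**
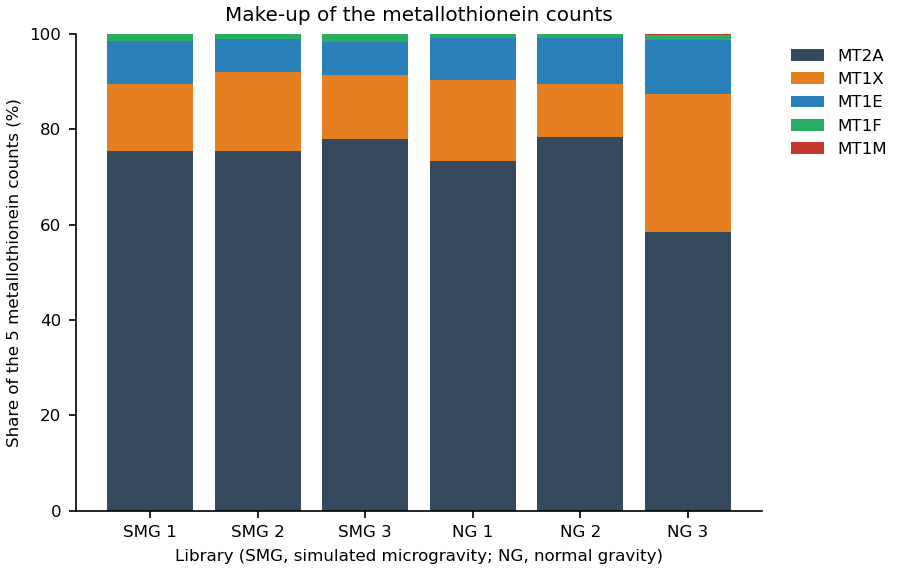
Share of the 5 metallothionein counts taken by each gene (stacked to 100%), in 3 simulated microgravity (SMG) and 3 normal gravity (NG) libraries. MT2A takes 73.2% to 78.3% in each library except normal gravity replicate 3, where it takes 58.4% and MT1X 29.04%.

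ZIP importers, which bring zinc into the cytosol, went both ways: of 13 genes tested out of 14, 5 fell, 2 rose and 6 were not called, with a median log2 fold change of -0.06. A call for 7 of 13 is near the 57.6% over all genes tested, so the count shows nothing particular to the family, and the genes are described singly. SLC39A8, which carries zinc, manganese and cadmium, fell most. It was at 5.66, 6.999 and 4.95 CPM in simulated microgravity, against 33.8, 34.7 and 20.2 CPM in normal gravity (log2 fold change -2.33, SE 0.24, adjusted p = 0.000105). SLC39A10, an importer of the plasma membrane, was at 11.2, 12.3 and 10.4 CPM in simulated microgravity, against 27.2, 32.8 and 20.7 CPM in normal gravity (log2 fold change -1.25, SE 0.19). SLC39A14, which carries zinc, iron and manganese, was at 137, 97.8 and 109 CPM in simulated microgravity, against 200.2, 179.5 and 196 CPM in normal gravity (log2 fold change -0.75, SE 0.14). In these 3 genes the groups do not overlap.

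Smaller falls were found for SLC39A13, which releases zinc from vesicles (log2 fold change -0.48, SE 0.11, adjusted p = 0.00665), and for SLC39A1, an abundant importer of the plasma membrane (-0.32, SE 0.10, adjusted p = 0.0254). The call of SLC39A1 was lost without simulated microgravity replicate 1 (adjusted p = 0.106) or 2 (0.0663) and without normal gravity replicate 1 (0.0679) or 2 (0.091). For SLC39A4, the intestinal zinc importer mutated in acrodermatitis enteropathica, the log2 fold change was -0.62 (SE 0.27, adjusted p = 0.0838), and without normal gravity replicate 3 it fell by 0.90 on the log2 scale (adjusted p = 0.000173).

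The 2 ZIP genes called higher were scarce. SLC39A12, best known from brain, had 72, 55 and 72 counts in simulated microgravity and 0 counts in each normal gravity library, so with 3 counts over that group as the floor it was at least 70.7-fold higher. SLC39A2, an importer known from keratinocytes, had 62, 41 and 48 counts in simulated microgravity and 5, 0 and 11 counts in normal gravity (log2 fold change 3.30, SE 0.79, adjusted p = 0.00714). Without normal gravity replicate 3 the change of SLC39A2 was 4.36. The groups do not overlap in either gene. Both passed the filter on low counts only through simulated microgravity, where they are high, so their tests and lack of overlap are given as a description.

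**Figure D4:**
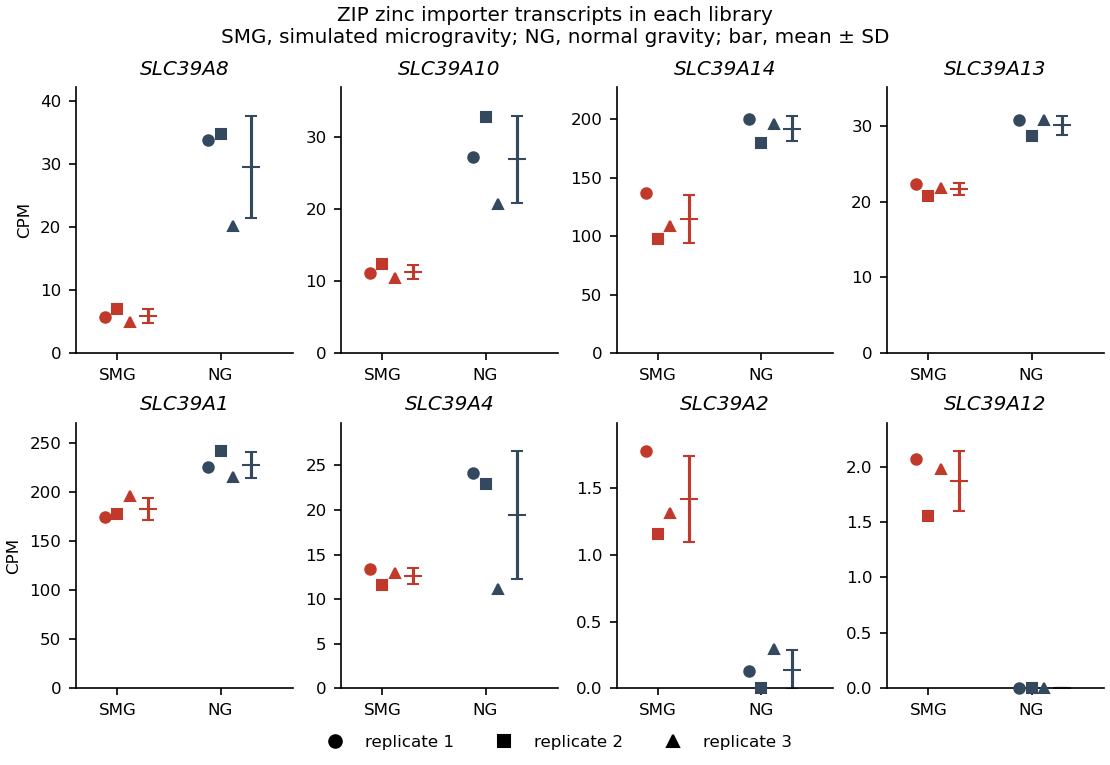
CPM of 8 ZIP importer genes, 1 panel each with its own axis from 0, in 3 simulated microgravity (SMG) and 3 normal gravity (NG) libraries; marker shape gives the replicate and the bar the mean ± SD (lower end cut at 0). SLC39A8, SLC39A10, SLC39A14, SLC39A13 and SLC39A1 are lower in every simulated microgravity library, SLC39A2 and SLC39A12 are higher in every one, and SLC39A4 overlaps through normal gravity replicate 3.

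ZnT exporters gave no calls, against 57.6% called over all genes tested by edgeR's quasi-likelihood test. Of 11 listed genes 9 had a row and 6 were tested, and edgeR's quasi-likelihood test, DESeq2 and limma-voom each called 0 of them, with 0 also at an unadjusted p under 0.05 in each. SLC30A9, a transporter of mitochondria, was at 41.7, 46.8 and 40.8 CPM in simulated microgravity, against 50.6, 53.3 and 45.2 CPM in normal gravity (log2 fold change -0.21, SE 0.11, adjusted p = 0.146). The other 4 besides SLC30A1, which load zinc into the Golgi and vesicles, had log2 fold changes of -0.18 (SLC30A4), 0.06 (SLC30A6), 0.07 (SLC30A7) and 0.07 (SLC30A5). Without normal gravity replicate 3, SLC30A9 fell (log2 fold change -0.27, adjusted p = 0.048) and SLC30A1 rose, as given above. Whether the ZIP and ZnT families differ was not tested.

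**Figure D5:**
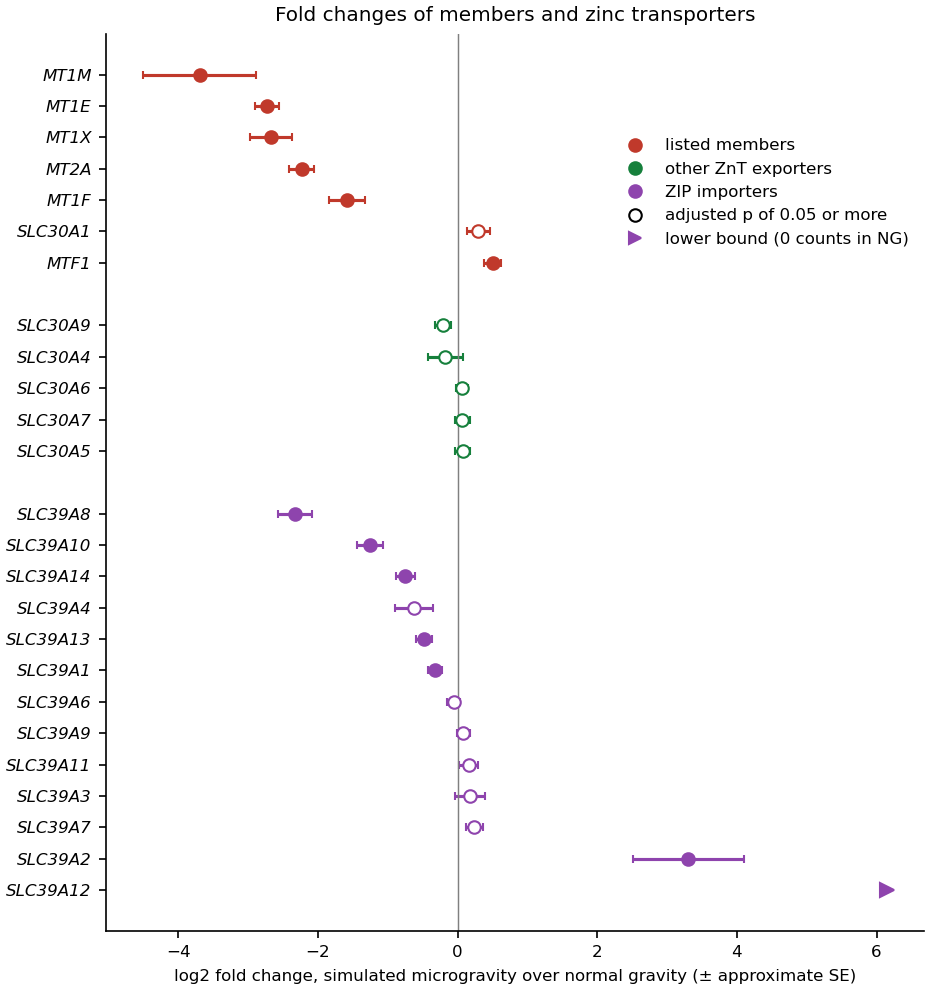
Log2 fold changes, simulated microgravity over normal gravity, with approximate SE, for the 7 genes, the 5 other tested ZnT exporters and 13 ZIP importers; open circles have an adjusted p of 0.05 or more. The metallothioneins lie between -3.69 and -1.58, the ZnT exporters near 0, and the triangle for SLC39A12 is a lower bound, since it had 0 counts in normal gravity (NG).

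Of 9 listed reporters of metal and oxidant stress, 8 rose and 0 fell in edgeR's quasi-likelihood test, against 28.2% of all genes tested that rose and 29.3% that fell, with the same counts by DESeq2 and limma-voom and 0 lower at an unadjusted p under 0.05 in each. Their median log2 fold change was 1.07, and the gene not called was SLC7A11, the cystine transporter. HMOX1, the heme oxygenase induced by cadmium and oxidants, was at 33.9, 25.2 and 29.3 CPM in simulated microgravity, against 1.94, 1.68 and 0.664 CPM in normal gravity (log2 fold change 4.37, SE 0.36). TXNRD1, the thioredoxin reductase of the NRF2 response, was at 1467, 1365 and 1743 CPM in simulated microgravity, against 277, 363 and 223 CPM in normal gravity (log2 fold change 2.41, SE 0.20). HSPA1B, an inducible heat shock protein, rose by 1.47 on the log2 scale (SE 0.12), with reads that may be shared with its copy HSPA1A. In these 3 genes every simulated microgravity library lies above every normal gravity library.

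Glucocorticoid reporters were uneven: of 8 tested, 1 rose, 2 fell and 5 were not called, with a median of -0.93, against 57.6% called over all genes tested. FKBP5, a chaperone of the glucocorticoid receptor, was at 120.5, 140.5 and 108 CPM in simulated microgravity, against 294, 273 and 477 CPM in normal gravity (log2 fold change -1.50, SE 0.22, adjusted p = 0.000674). The other gene that fell was ZBTB16, whose call was lost by limma-voom, without any 1 of the simulated microgravity libraries and without normal gravity replicate 3 (adjusted p = 0.162), and the gene that rose was PER1, a clock gene (log2 fold change 0.67, SE 0.21, adjusted p = 0.0229). PER1 lost its call without simulated microgravity replicate 1 or 3 or normal gravity replicate 1 or 2. ZBTB16 passed the filter on low counts only through normal gravity, where it is high, so its call is given as a description. TSC22D3, known as GILZ, was at 168, 164 and 210.1 CPM in simulated microgravity, against 266, 156 and 1162 CPM in normal gravity (adjusted p = 0.079). Its normal gravity mean rests on replicate 3, and no fold change without that library is given here. Normal gravity replicate 3, the library with the highest MT1X, was thus also the highest for FKBP5 and TSC22D3. Among the normal gravity libraries it was the highest for every reporter on the list, so the group differences of this list depend on it. Within normal gravity it was the lowest for MT2A, at 339.6 CPM against 499.6 and 537 CPM. The part of these responses in the metallothionein values was not tested.

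Of 13 copper handling genes 4 rose, 4 fell and 5 were not called, near the 28.2% higher and 29.3% lower over all genes tested. STEAP4, counted among the 4 that rose, had 38, 53 and 30 counts in simulated microgravity, against 8, 10 and 20 in normal gravity. It passed the filter on low counts only through simulated microgravity, where it is high, so its call is given as a description. SLC31A2, a low-affinity copper transporter of lysosomes, was at 74.7, 47.9 and 74.8 CPM in simulated microgravity, against 25.3, 24.3 and 18.9 CPM in normal gravity (log2 fold change 1.53, SE 0.20). ATP7B, a copper-exporting ATPase, was at 2.53, 2.01 and 3.13 CPM in simulated microgravity, against 5.89, 5.22 and 7.28 CPM in normal gravity (log2 fold change -1.26, SE 0.26). The count of genes that rose fell to 1 without normal gravity replicate 1. It was 2 without normal gravity replicate 2 or any 1 simulated microgravity library, and 5 without normal gravity replicate 3. Over all genes tested the count that rose moved too, from 4157 with every library in. That count was 3549 without normal gravity replicate 1, 3896 without replicate 2 and 4833 without replicate 3. Without any 1 simulated microgravity library it was 3435 to 3842.

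The genes around the metallothionein cluster did not move as one. Of 10 tested genes within 500 kb of it on either side, 5 fell, 2 rose and 3 were not called, with a median log2 fold change of -0.27, against 57.6% called over all genes tested. Those that fell were GNAO1, NUDT21, OGFOD1 and BBS2 before the cluster and NUP93 after it, and those that rose were HERPUD1 and NLRC5, both after it (all named after their values were seen). GNAO1, a G protein subunit, changed most, by -3.85 on the log2 scale, and by -2.91 without normal gravity replicate 3. The log2 fold change of NUP93, a nuclear pore protein, was -0.94 (SE 0.18), and that of HERPUD1, an endoplasmic reticulum stress protein, was 1.58 (SE 0.14). Without simulated microgravity replicate 1 or replicate 3, the genes that fell numbered 3. Over all genes tested 3503 and 3611 fell without these libraries, against 4325 with every library in.

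Over the 6 libraries, the transcripts most like MT2A by Pearson's r of log2 CPM were BUB1B, ARHGAP11A and CKAP2, each with r = 0.999. BUB1B, a kinase of the spindle checkpoint, was at 1.35, 1.67 and 0.935 CPM in simulated microgravity, against 61.9, 83.0 and 28.9 CPM in normal gravity, also lowest in normal gravity replicate 3 within its group. Those most like MT1X were STARD5, SNHG8 and ATG10, each also with r = 0.999. STARD5, a lipid transfer protein, was at 5.03, 5.44 and 4.07 CPM in simulated microgravity, against 16.2, 11.7 and 19.6 CPM in normal gravity, highest in normal gravity replicate 3. Such values are common when groups lie far apart: of 10240 genes compared, 1579 had r over 0.95 with MT2A and 1013 with MT1X, against 26 with SLC30A1. Nearest to SLC30A1 were PTK2, the focal adhesion kinase (r = 0.982), PLEKHM3 (r = 0.978) and CC2D1A (r = 0.977). The genes of 1 library share its depth and scaling, so these values are a description.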

How the data were processed

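For the 6 libraries, the authors deposited 1 table of raw read counts per gene (whole numbers). Per the labels' protocols, RNA was extracted with TRIzol and sequenced as paired 150 bp reads. The tools fastp, HISAT, HTSeq, DESeq2 and R 3.2.0 and the build hg38 are named, per the submitters' processing notes, without their roles. The annotation release and strand setting were not stated. Columns were matched to samples by group name and replicate number.

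Genes were filtered with filterByExpr (minimum count 10), scaled by TMM and tested with edgeR 4.0.16 (quasi-likelihood F-test, robust, R 4.3.3), with Benjamini-Hochberg adjustment over all genes tested and a threshold of 0.05. SEs are approximate (the log2 fold change over the root of F). Where a group had 0 counts, a floor of 3 counts over it was used, which covers counting error only. Libraries of 1 group differed beyond sampling noise (chi-square over its degrees of freedom, 19.0 to 152). Tests were tried on simulated counts. As alternatives, scaling (size factors of DESeq2, or none), filters, tests (DESeq2 1.42.0, limma-voom from limma 3.58.1), a replicate block and each library's removal were tried. Ratios between members were compared with exact permutation tests (scipy 1.17.1). Coordinates and promoters come from RefSeq GRCh38.p14, transcripts from GENCODE release 29.

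The members and lists were chosen with earlier results of these data known. Named genes are the members, from each list the 2 genes with the smallest adjusted p (1 per direction where both occurred), and the 3 genes most like MT2A, MT1X and SLC30A1 with a mean of at least 5 CPM. Further ZIP, ZnT and stress genes, ZBTB16, TSC22D3, STEAP4 and cell type markers were named after their values were seen.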

Additional observations from a re-analysis of the deposited data

How the results depend on the processing

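The 5 falls and the rise of MTF1 kept their direction and their call in 77 of 77 alternatives run. MT1M was not tested under the filter of CPM above 1 in 3 libraries, and its calls are given as a description. MT2A ranged from -2.41 to -2.11, MT1X from -2.91 to -2.34, MT1E from -2.90 to -2.58, MT1F from -1.68 to -1.43, MT1M from -5.03 to -3.13 and MTF1 from 0.40 to 0.57 on the log2 scale. SLC30A1 ranged from 0.18 to 0.50 and was called in 1 of 13 alternatives, without normal gravity replicate 3. Leaving out each library in turn, members called higher numbered 1 to 2, ZnT exporters 0 to 1 higher and 0 to 1 lower, copper handling genes 1 to 5 higher, and glucocorticoid reporters 0 to 2 higher and 1 to 4 lower. Over all genes tested, 3435 to 4833 rose and 3503 to 4722 fell across these removals, against 4157 and 4325 with every library in. The cause of these moves was not tested. The median log2 fold change of all genes stayed between -0.0252 and 0.0732.

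Replicate numbers are shared by the groups, but same-numbered libraries did not deviate together (correlations 0.0494, -0.0437 and -0.0169), and 2 of 6 libraries correlated best with their own number. With a replicate block, 3875 genes rose and 3985 fell over all genes tested, against 4157 that rose and 4325 that fell without it, and 1 member rose and 5 fell, as without it. SLC39A1 (adjusted p = 0.0643), ATOX1 (0.07), COX17 (0.0667) and BBS2 (0.0729) lost their calls under the block.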
